A study of Mus musculus with 8 samples.

Results

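The IL-12, IL-23 and IL-17 axis was taken as 9 of the 55416 genes in the count tables: *Il12a*, *Il12b*, *Il23a*, *Il17a*, *Il17c*, *Il17f* and *Il22*, which encode cytokine chains, and *Il23r* and *Il17ra*, which encode receptor chains. They were named by symbol and matched to the Ensembl identifiers of the tables. Of the 9 genes, 8 passed the filter on low counts (over 0.504 CPM, the count scaled to library size, in at least 2 mice), as did 18560 of the 55416 genes.

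The data were counts of RNA-seq reads per gene in the lungs of 8 female mice of 6 to 8 weeks, of strain C57BL/6J in the methods and C57BL/6 on the labels. The 3 control mice (numbers 1, 2 and 4) received the solvent DMSO intravenously and, 0.5 h later, saline into the peritoneum. The 3 LPS mice (1, 6 and 7) received bacterial lipopolysaccharide (LPS) into the peritoneum at 35 mg/kg, and no solvent injection is described for them. The 2 dual-treated mice (2 and 5) received YW3-56, an inhibitor of protein arginine deiminases, at 10 mg/kg. It was dissolved in DMSO, and the same dose of LPS followed 0.5 h later. Lungs were collected 24 h after LPS. No group is described as receiving LPS with the solvent alone, or the inhibitor without LPS. As described, the LPS mice differed from both other groups in the solvent as well. The effects of solvent and inhibitor on the response to LPS therefore cannot be told apart here. Total counts were 19061949, 19796242 and 20527836 for control mice 1, 2 and 4. For LPS mice 1, 6 and 7 the totals were 20818501, 19379911 and 19279724, and for dual-treated mice 2 and 5 they were 19875939 and 20908608. At these depths, 1 count stood for 0.0439 to 0.0593 CPM after scaling. Values below are CPM scaled by edgeR's TMM method, and they list the mice of each group in the order above.

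IL-12 is a dimer of the chains encoded by *Il12a* and *Il12b*, and it drives natural killer and T cells toward interferon gamma. IL-23 shares the *Il12b* chain, joins it to the chain encoded by *Il23a*, and acts through *Il23r* on gamma delta T cells, innate lymphoid cells and helper T cells that make IL-17A, IL-17F and IL-22. In the lung, IL-17 cytokines signal through *Il17ra* in epithelium and stroma to raise chemokines and growth factors that recruit neutrophils, and IL-22 acts on epithelium to raise antimicrobial and acute phase proteins.

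LPS was compared with control to show the response of the axis to endotoxin. The dual treatment was compared with LPS to show how the response differed when YW3-56 in DMSO came first. It was compared with control to show what remained. These 3 comparisons share groups of mice. In lungs after LPS, transcripts of *Il17a*, *Il17f* and *Il22* stood at 2.08 CPM or more, from at most 2 counts in any control library, *Il17ra* was about 6 times its control level, and *Il12b*, the chain that IL-12 and IL-23 share, was at 13 counts or fewer in each library. After the dual treatment the type 17 cytokines were again at 2 counts or fewer per library, and *Il17ra* lay between the other groups. A gene was called when its fold change was over 2 and its p-value, by the quasi-likelihood test of edgeR with Benjamini-Hochberg adjustment over the 18560 genes, was under 0.05. For LPS against control, 8 of the 8 tested members were called higher, where 17.9% of all tested genes were called higher, 21.3% lower and 39.2% in either direction. For the dual treatment against LPS, 8 of 8 were called lower, where 14.0% of all tested genes were called lower, 19.8% higher and 33.8% in either direction. For the dual treatment against control, *Il17ra* was called higher and the other 7 were not called, where 5.25% of all tested genes were called higher, 1.90% lower and 7.15% in either direction. *Il23a*, *Il23r*, *Il17a*, *Il17c*, *Il17f* and *Il22* passed the filter through the LPS mice alone and so had to differ, so the counts of called members support nothing by themselves. *Il12a*, *Il23a*, *Il17c* and *Il17ra* also stand in the study's own list of inflammatory genes reversed by YW3-56, which was drawn from these libraries and is not independent evidence. In bulk tissue, fewer cells of a type and less RNA per cell cannot be told apart.

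**Figure D1:**
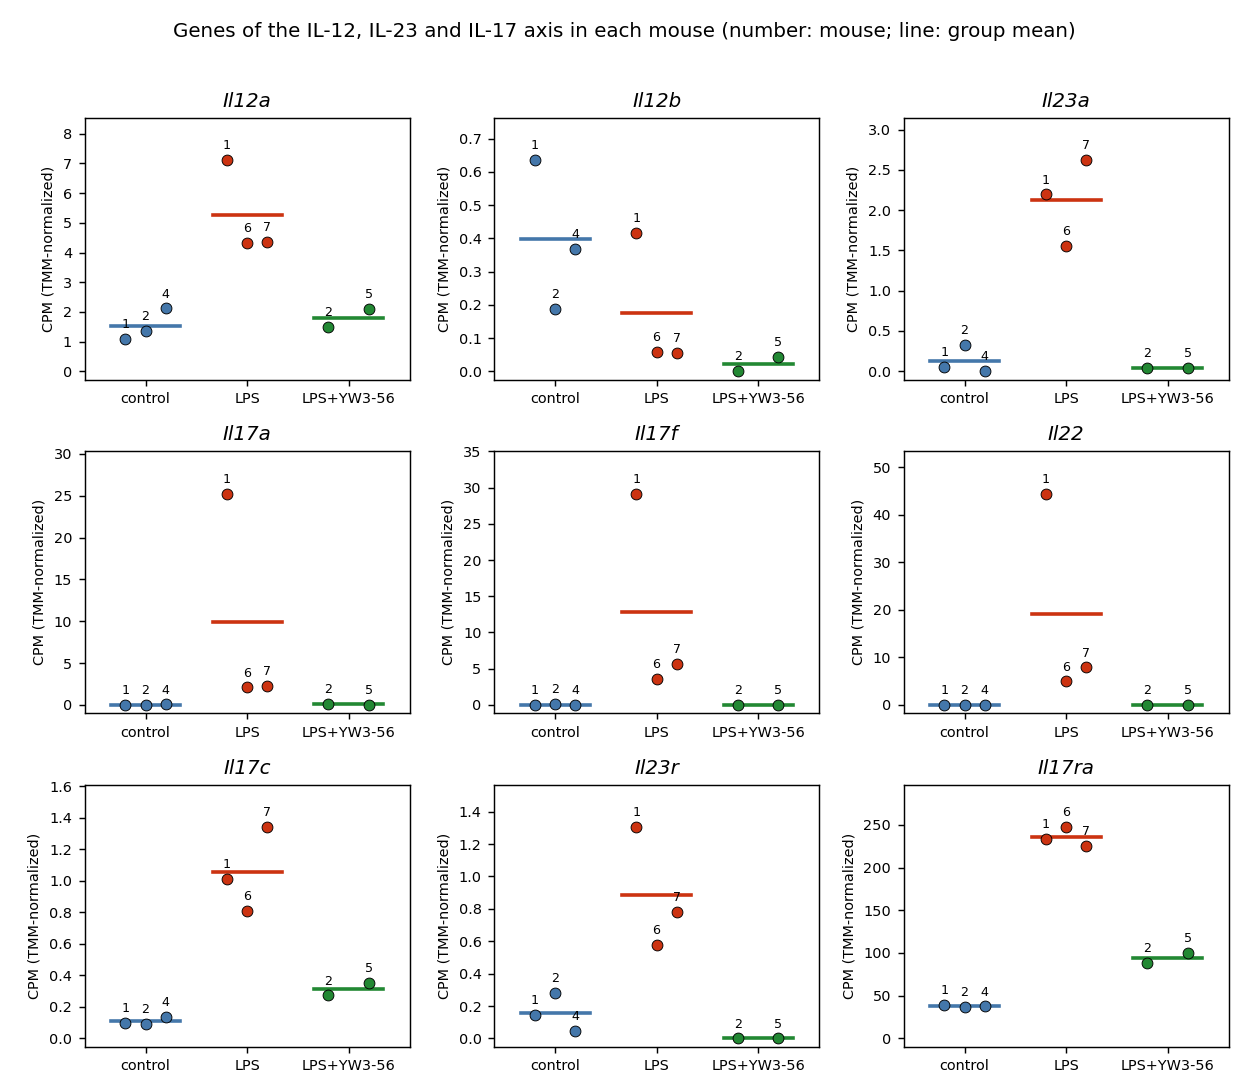
Each panel shows 1 gene of the axis, with TMM-scaled CPM of each mouse as a point labelled by mouse number and the group mean as a line. *Il17a*, *Il17f* and *Il22* were highest in LPS mouse 1, at 25.3, 29.2 and 44.4 CPM.

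*Il12a* (ENSMUSG00000027776, GRCm39 chr3:68597977-68605880, plus strand) encodes the chain that is particular to IL-12 and IL-35. It was at 1.08, 1.36 and 2.12 CPM in the control mice, 7.12, 4.33 and 4.35 CPM in the LPS mice, and 1.5 and 2.11 CPM in the dual-treated mice. The LPS mice lay above the other 5 mice, and the dual-treated mice lay within the control range. From control to LPS the log2 fold change (log2FC) was 1.79 (SE 0.34, edgeR adjusted p = 0.00118). Under the dual treatment *Il12a* fell by 1.54 on the log2 scale relative to LPS (SE 0.38, edgeR adjusted p = 0.00681). Between the dual treatment and control the log2FC was 0.25 (SE 0.38, edgeR adjusted p = 0.717), and it was -0.05 without dual-treated mouse 5.

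*Il12b* (ENSMUSG00000004296, GRCm39 chr11:44290808-44305505, plus strand), which encodes the chain common to IL-12 and IL-23, was the member that failed the filter. Its raw counts were 13, 4 and 8 in the control mice, 7, 1 and 1 in the LPS mice, and 0 and 1 in the dual-treated mice. In CPM this was 0.636, 0.188 and 0.368 in control lungs, 0.415, 0.0578 and 0.0558 after LPS, and 0 and 0.0439 after the dual treatment. The control and LPS ranges overlapped through LPS mouse 1 alone, and without it the pooled ratio of LPS to control was 0.145 (95% counting interval 0.0166 to 0.581). Without LPS mice 6 and 7, where *Il12b* passed the filter, the log2 fold change was 0.07 (edgeR adjusted p = 0.958), and with all control and LPS mice but without dual-treated mouse 2 it was -1.17 (edgeR adjusted p = 0.267). Both dual-treated mice lay below the control mice and below the LPS mice, though LPS mice 6 and 7 and dual-treated mouse 5 had 1 count each. The pooled ratio of the dual treatment to control was 0.0567 (0.00138 to 0.346), and its ratio to LPS was 0.129 (0.00295 to 0.932). These intervals, like the others given here, cover counting error only and not the spread between mice. When no filter on low counts was used, *Il12b* was tested and was not called for the dual treatment against control or against LPS. Without dual-treated mouse 2 the ratio to control was 0.109 (0.00266 to 0.667) and the ratio to LPS 0.25 (0.00569 to 1.8), and without dual-treated mouse 5 the bounds were at least 2.98-fold and at least 1.3-fold lower. Without LPS mouse 1 the LPS and dual-treated groups were both at the floor, and without LPS mice 6 and 7 the ratio to LPS was 0.0535 (0.00119 to 0.416). Bounds of this kind set a group without counts at a floor of 3 counts per library.

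*Il23a* (ENSMUSG00000025383, GRCm39 chr10:128132008-128134621, minus strand) encodes the chain particular to IL-23. It was at 0.0489, 0.329 and 0 CPM in the control mice, 2.195, 1.56 and 2.62 CPM in the LPS mice, and 0.0454 and 0.0439 CPM in the dual-treated mice. Each LPS mouse lay above the other 5 mice, and the dual-treated mice, with 1 count each, lay within the control range. The log2FC from control to LPS was 4.01 (SE 0.76, edgeR adjusted p = 0.00117). Control mouse 2 held 7 of the 8 control counts, and without it the pooled ratio of LPS to control was 89.7 (95% counting interval 15.8 to 3570). The dual treatment stood at 0.0209 times the LPS level (0.00251 to 0.0775, edgeR adjusted p = 0.00164). Against control its ratio was 0.354 (0.0366 to 1.77, edgeR adjusted p = 0.512), and it was 0.228 (0.0236 to 1.14) without control mouse 4. Without control mouse 2, both of those groups were at the floor.

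*Il17a* (ENSMUSG00000025929, GRCm39 chr1:20801129-20804720, plus strand) encodes IL-17A, the founding cytokine of the type 17 response. It was at 0, 0 and 0.046 CPM in the control mice, 25.3, 2.08 and 2.29 CPM in the LPS mice, and 0.0908 and 0 CPM in the dual-treated mice. LPS mouse 1 stood far above LPS mice 6 and 7, and each of these lay above the other 5 mice. The pooled ratio of LPS to control was 613 (95% counting interval 110 to 24300, edgeR adjusted p = 0.000827). Without LPS mouse 1 it was 139 (24.3 to 5580), without LPS mice 6 and 7 it was 1610 (288 to 63800), and without control mouse 2 it was 406 (72.6 to 16100). Without control mouse 4, which held the single control count, the rise was at least 67.5-fold. The ratio of the dual treatment to LPS was 0.00462 (0.000558 to 0.0168, edgeR adjusted p = 0.00351). It was 0.0203 (0.00242 to 0.076) without LPS mouse 1, 0.00176 (0.000212 to 0.00639) without LPS mice 6 and 7, and 0.00925 (0.00112 to 0.0336) without dual-treated mouse 5. Without dual-treated mouse 2 the level was at least 75-fold lower than after LPS. The control and dual-treated groups were both at the floor, so no fold between them is given.

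*Il17f* (ENSMUSG00000041872, GRCm39 chr1:20847368-20860841, minus strand) lies beside *Il17a* and encodes IL-17F, which pairs with IL-17A or with itself. Its levels were 0, 0.0939 and 0 CPM in control lungs, 29.2, 3.58 and 5.64 CPM after LPS, and 0.0454 and 0 CPM after the dual treatment. LPS mouse 1 was again the highest, and the LPS mice did not overlap the other 5 mice. LPS stood at 399 times control (95% counting interval 110 to 3300, edgeR adjusted p = 0.000217). This ratio was 148 (40.2 to 1230) without LPS mouse 1, 930 (256 to 7700) without LPS mice 6 and 7, and 263 (72.4 to 2170) without control mouse 4. Without control mouse 2 the rise was at least 89.7-fold. The dual treatment stood at 0.00177 times LPS (4.49e-05 to 0.00992, edgeR adjusted p = 0.000848). That ratio was 0.0048 (0.000121 to 0.0271) without LPS mouse 1, 0.000761 (1.92e-05 to 0.00426) without LPS mice 6 and 7, and 0.00355 (8.98e-05 to 0.0199) without dual-treated mouse 5. Without dual-treated mouse 2 the level was at least 97.4-fold lower. The control and dual-treated groups were both at the floor.

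*Il22* (ENSMUSG00000074695, GRCm39 chr10:118040847-118045952, plus strand) encodes IL-22, made largely by the same lymphocytes. It had no count in the control mice, 44.4, 4.91 and 7.87 CPM in the LPS mice, and 0 and 0.0439 CPM in the dual-treated mice. LPS mouse 1 was the highest of the 8, with 749 counts, and dual-treated mouse 5 had 1 count. *Il22* was at least 134-fold higher with LPS than in control (edgeR adjusted p = 0.000647), at least 45.3-fold without LPS mouse 1, and at least 314-fold without LPS mice 6 and 7. The dual treatment stood at 0.00119 times LPS (95% counting interval 3.02e-05 to 0.00666, edgeR adjusted p = 0.00237). The ratio was 0.00346 (8.73e-05 to 0.0195) without LPS mouse 1, 5e-04 (1.26e-05 to 0.00279) without LPS mice 6 and 7, and 0.0023 (5.83e-05 to 0.0129) without dual-treated mouse 2. Without dual-treated mouse 5 the level was at least 140-fold lower. *Il22b*, a close copy of *Il22* in the annotation, had no count in any of the 8 mice, and how reads shared by such copies were assigned is not stated.

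*Il17c* (ENSMUSG00000046108, GRCm39 chr8:123148759-123150844, plus strand) encodes IL-17C, an epithelial cytokine that signals through *Il17ra* and *Il17re*. It was at 0.0979, 0.0939 and 0.138 CPM in the control mice, 1.01, 0.809 and 1.34 CPM in the LPS mice, and 0.272 and 0.351 CPM in the dual-treated mice. The 3 groups did not overlap, and the dual-treated mice lay between the others. LPS stood at 9.58 times control (95% counting interval 4.35 to 24.9, edgeR adjusted p = 0.000411). After the dual treatment *Il17c* fell by 1.74 on the log2 scale relative to LPS (SE 0.51, edgeR adjusted p = 0.0152). That call was lost without dual-treated mouse 2, without dual-treated mouse 5, and without LPS mice 6 and 7. The fall was about as large in these refits, with a log2FC of -1.59, -1.95 and -1.68. Against control the dual treatment stood at 2.83 times (1.07 to 8.3, edgeR adjusted p = 0.132).

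The last exon of *Il17c* shares 423 bases (GRCm39 chr8:123150422-123150844) with the last exon of *Cyba*, which lies on the other strand and encodes a subunit of the phagocyte NADPH oxidase. The shared bases hold 0 coding bases of either gene, and whether reads were assigned by strand is not stated. *Cyba*, chosen after its values were seen, was at 77.6, 67.7 and 81.2 CPM in the control mice, 191, 209.6 and 115 CPM in the LPS mice, and 176 and 194 CPM in the dual-treated mice. The dual-treated mice were thus as high as the LPS mice for *Cyba* and below them for *Il17c*. The log2FC of *Cyba* was 1.19 with LPS against control (edgeR adjusted p = 0.000554) and 0.10 with the dual treatment against LPS (edgeR adjusted p = 0.695). The part of *Cyba* reads in the counts of *Il17c* was not tested.

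**Figure D2:**
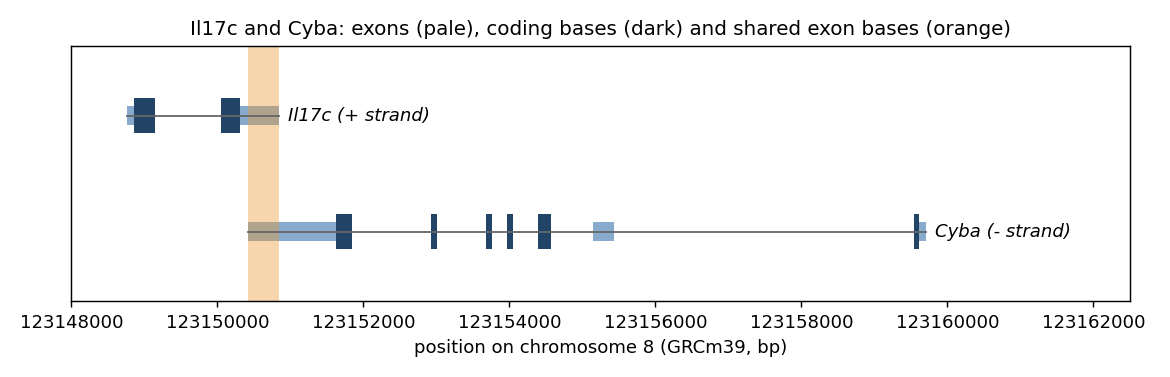
The map draws *Il17c* on the plus strand and *Cyba* on the minus strand of GRCm39 chromosome 8, with the position in bases on the axis, exons as boxes and coding bases as taller boxes. The last exons of the 2 genes overlap by 423 bases.

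*Il23r* (ENSMUSG00000049093, GRCm39 chr6:67391313-67468888, minus strand) encodes the chain that gives lymphocytes their response to IL-23. It was at 0.147, 0.282 and 0.046 CPM in the control mice, 1.31, 0.578 and 0.782 CPM in the LPS mice, and at no count in the dual-treated mice. The LPS mice lay above the control mice, and the dual-treated mice lay below both. The log2FC from control to LPS was 2.45 (SE 0.68, edgeR adjusted p = 0.0118), and without control mouse 2 the pooled ratio was 9.29 (95% counting interval 3.39 to 35.5). *Il23r* was at least 6.63-fold lower after the dual treatment than after LPS (edgeR adjusted p = 0.00196). Against control the dual treatment was at least 1.18-fold lower (edgeR adjusted p = 0.0833), and without control mouse 2 both groups were at the floor. A pseudogene on the same strand, *Gm4761*, shares 582 exon bases with *Il23r* and had 2 counts in LPS mouse 1, 1 count in LPS mouse 7 and 0 in the other 6 mice.

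*Il17ra* (ENSMUSG00000002897, GRCm39 chr6:120440104-120464520, plus strand) encodes the receptor chain common to IL-17A, IL-17F and IL-17C. It was at 39.05, 37.2 and 37.4 CPM in the control mice, 233, 247 and 225 CPM in the LPS mice, and 87.99 and 100.1 CPM in the dual-treated mice. The 3 groups were far apart relative to the spread within each. LPS stood 6.21-fold above control (SE of the log2FC 0.10, edgeR adjusted p = 2.3e-07). The dual treatment stood 2.48-fold above control (log2FC 1.31, SE 0.10, edgeR adjusted p = 7.49e-05). Between LPS and the dual treatment *Il17ra* fell by 1.32 on the log2 scale (SE 0.10, edgeR adjusted p = 1.21e-05). Under scaling by library size alone it fell by 0.998 and missed the fold threshold (edgeR adjusted p = 4.71e-05). That scaling moved the median log2FC of all tested genes from 0.06 to 0.38 for the dual treatment against LPS, and from -0.01 to -0.29 for LPS against control.

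Divided by exon length, levels can be compared between genes. After LPS the order of group means in CPM per kb was *Il17ra* (26.8), *Il22* (17.2), *Il17a* (8.44), *Il17f* (6.01), *Il12a* (2.97), *Il23a* (0.946), *Il17c* (0.888), *Il23r* (0.274) and *Il12b* (0.0643). From *Il17ra* to *Il12a* each neighbouring pair overlapped between mice, as did *Il23a* and *Il17c*, and the other neighbours did not. LPS mouse 1 alone gave the overlap of *Il17ra* with *Il22*, whose values were 40.03, 4.42 and 7.09 CPM per kb. It also set the order of *Il17a*, *Il17f* and *Il12a*, at 21.6, 13.7 and 4.02 CPM per kb in that mouse, against 1.78, 1.68 and 2.44 in LPS mouse 6 and 1.95, 2.64 and 2.46 in LPS mouse 7. In control lungs *Il17ra* (4.32), *Il12a* (0.856) and *Il12b* (0.145) led, and neighbours overlapped from *Il12b* downward. After the dual treatment *Il17ra* (10.7), *Il12a* (1.02) and *Il17c* (0.263) led without overlap, and the other 6 members were at 0.0388 CPM per kb or lower.

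Among the 8 members that passed the filter, log2 CPM over the 8 mice was most alike for *Il17f* and *Il22* (Pearson's r = 0.992), *Il17a* and *Il17f* (0.983) and *Il17a* and *Il22* (0.982). Of their pairs, *Il23r* and *Il17ra* were least alike (0.624), and *Il12b* was not included. These coefficients describe 8 mice in 3 groups, are carried largely by the differences between groups, and are given without p-values. Among the tested genes with a mean of at least 1 CPM, the most like *Il22* were *Gem* (0.998), *Trib1* (0.996) and *Bcar1* (0.996). *Nt5c3* (0.996), *Tor3a* (0.996) and *Ier2* (0.993) were the most like *Il17a*, and *Zbtb17*, *Csnk1d* and *Rnf138* (each 0.995) the most like *Il17f*. Nearest to *Il17ra* were *Zbtb22* (0.998), *Rnf149* (0.997) and *Dapp1* (0.996), and nearest to *Il17c* were *Tmem125* (0.994), *Brpf1* (0.993) and *Rpap2* (0.99). *Enox1* (0.996), *Ppp1r14d* (0.989) and *Pard3* (0.988) were the most like *Il23r*, *Slc16a8* (0.988), *Yod1* (0.987) and *Mir6386* (0.986) the most like *Il23a*, and *Rrp1* (0.987), *Gm13033* (0.985) and *Drg2* (0.984) the most like *Il12a*. With Spearman's rho in place of Pearson's r, the nearest 3 genes changed for all 8 of these members.

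**Figure D3:**
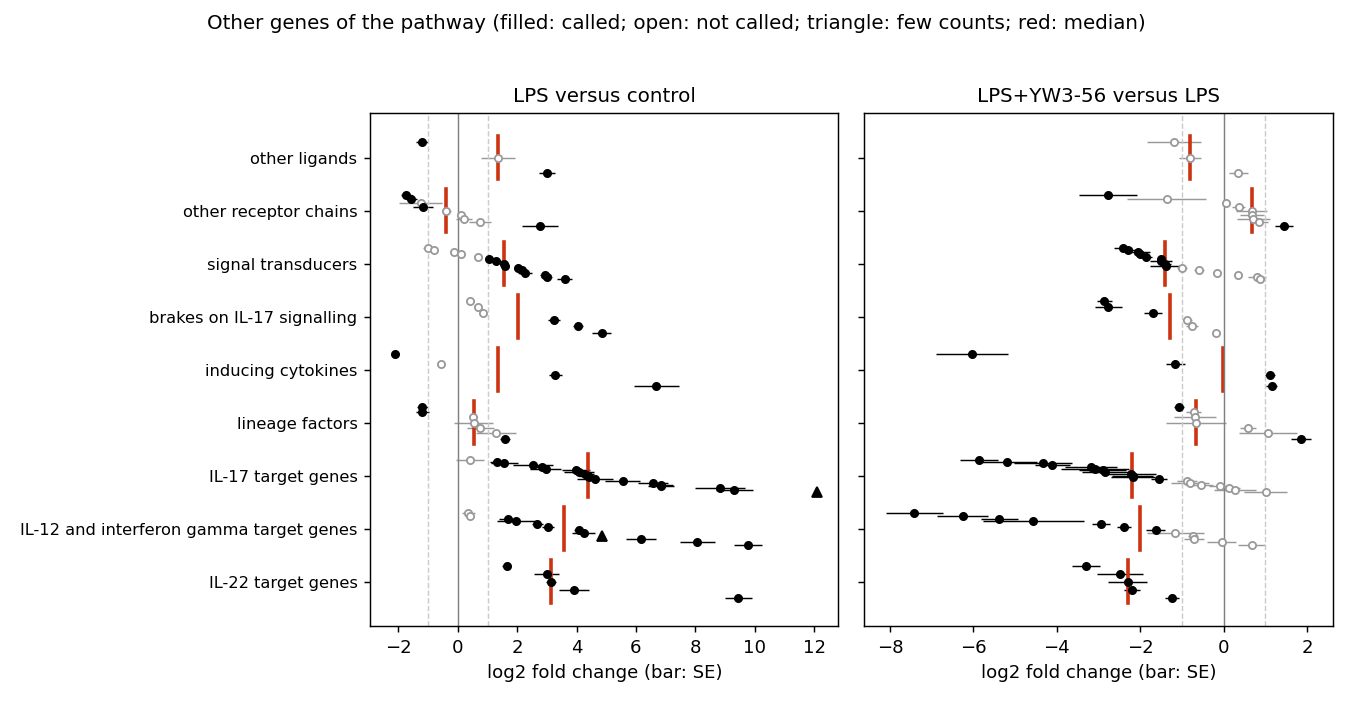
Each point is a tested gene of the pathway, by list, with its log2FC and SE for LPS against control and for the dual treatment against LPS, filled where called, with the list median in red and triangles at the pooled ratio where a group had at most 3 counts in every library. The IL-17 targets have a median log2FC of 4.38 with LPS and -2.19 from LPS to the dual treatment.

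Of the other ligands, *Ebi3*, the partner chain of IL-27 and IL-35, was at 1.57, 1.5 and 1.1 CPM in control lungs, 14.2, 10.9 and 8.37 CPM after LPS, and 5.76 and 6.94 CPM after the dual treatment. It was higher with LPS (log2FC 3.00, edgeR adjusted p = 8.85e-06) and with the dual treatment than in control (2.19, edgeR adjusted p = 0.000964), and the difference between the treatments, at -0.81, was called only without LPS mice 6 and 7 (-1.16, edgeR adjusted p = 0.0108). *Il17d* was lower with LPS (-1.20, edgeR adjusted p = 0.000572), and *Il27* had a log2FC of 1.34 and was not called (edgeR adjusted p = 0.0632). It was at 0.60 without LPS mouse 1 and was called without LPS mouse 6 or LPS mouse 7, so that 2 of these ligands were then called higher in place of 1. *Il17b* and *Il25* had at most 3 counts in any library and were not tested. The median of the 3 tested ligands with LPS was 1.34, against -0.01 for all tested genes.

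Of the 9 other receptor chains, 1 was called higher and 3 lower with LPS, with a median log2FC of -0.38. *Il12rb2*, the signalling chain of the IL-12 receptor, was at 0.196, 0.282 and 0.322 CPM in control lungs, 3.09, 1.68 and 0.837 CPM after LPS and 0.136 and 0.395 CPM after the dual treatment. The LPS mice lay above the other 5. *Il17re*, the partner of *Il17ra* for IL-17C, fell by 1.73 with LPS (edgeR adjusted p = 4.85e-05), from 30.7, 33.5 and 38.95 CPM to 11.2, 10.2 and 9.71 CPM. It was at 20.5 and 35.6 CPM after the dual treatment, higher than after LPS (log2FC 1.44, edgeR adjusted p = 0.000381). *Il17rd* (-1.57) and *Il22ra2*, a soluble antagonist of IL-22 (-1.18), were also called lower with LPS, the latter not without LPS mice 6 and 7 (edgeR adjusted p = 0.0664). *Il17rc*, the partner of *Il17ra* for IL-17A and IL-17F, was at -0.38, *Il17rb* at -1.25, *Il10rb* at 0.09, *Il22ra1* at 0.22 and *Il12rb1*, which IL-12 and IL-23 share, at 0.74, and these 5 were not called, though *Il17rb* was without either dual-treated mouse (edgeR adjusted p = 0.0408 and 0.0392). The *Il17ra* rise was thus not matched by a called rise of its partner chains *Il17rc* and *Il17re*. With the dual treatment against control, *Il12rb1* was called (1.45, edgeR adjusted p = 0.0379), a call lost when any of the control or dual-treated mice was left out. Its log2FC ranged from 1.25 to 1.56 in those refits. From LPS to the dual treatment 1 chain was called higher and 1 lower (*Il12rb2*). There, 2 were called higher and 2 lower without dual-treated mouse 2, the second lower being *Il17rb* (at least 5.02-fold), and 0 higher without dual-treated mouse 5 and 3 under scaling by library size alone.

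Among 15 signal transducers, 10 were called higher and 0 lower with LPS, with a median log2FC of 1.57. Between LPS and the dual treatment 9 were called lower and 0 higher (median -1.41), and against control 1 was called, *Cebpd*. *Stat3*, which carries the IL-23 and IL-22 signals, was at 260, 229 and 241 CPM in control lungs, 1128, 919 and 948 CPM after LPS, and 296 and 250 CPM after the dual treatment. *Nfkbiz*, a cofactor induced by IL-17, was at 53.1, 54.5 and 54.4 CPM, then 564, 327 and 402 CPM, then 85.9 and 76.3 CPM. For both genes the LPS mice lay above the other 5, and the dual-treated mice lay nearer to control than to LPS. *Cebpd* had a log2FC of 3.60 with LPS (edgeR adjusted p = 2.85e-06) and 1.55 with the dual treatment against control (edgeR adjusted p = 0.00362), and *Rela* of 1.04 with LPS (edgeR adjusted p = 3.44e-05). *Cebpd* was at 357 CPM in dual-treated mouse 2 and 176.4 CPM in mouse 5, and without mouse 2 it was at 0.93 against control and not called. The call of *Rela* was lost without LPS mouse 1 (0.94). Without control mouse 1, without LPS mouse 1 or without either dual-treated mouse, 1 transducer was called lower with LPS. Under scaling by library size alone, 2 were called lower with LPS and 2 higher from LPS to the dual treatment.

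Of 6 genes that restrain IL-17 signalling, 3 were called higher with LPS, lower from LPS to the dual treatment and higher with the dual treatment than in control. These were *Tnfaip3*, *Zc3h12a* and *Tnip1*, which encode the ubiquitin-editing protein A20, the RNase regnase and an A20 partner. *Tnfaip3* was at 25.1, 26.1 and 29.0 CPM in control lungs, 1020, 661 and 623 CPM after LPS, and 152 and 73.6 CPM after the dual treatment. The dual-treated mice lay between the other groups, and mouse 2 was higher than mouse 5. *Zc3h12a* was at 54.1 and 37.0 CPM in these mice, and without mouse 2 its call against control was lost (log2FC 0.85). The log2FC with LPS was 4.84 for *Tnfaip3* (edgeR adjusted p = 1.88e-06), 4.05 for *Zc3h12a* (edgeR adjusted p = 3.29e-07) and 3.23 for *Tnip1* (edgeR adjusted p = 1.71e-06). *Usp25* (0.84), *Traf3* (0.69) and *Traf4* (0.41) stayed under the fold threshold. The list's median was 2.03 with LPS, -1.29 from LPS to the dual treatment and 0.85 against control. Without LPS mice 6 and 7, 5 were called lower from LPS to the dual treatment.

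Of the cytokines that induce type 17 cells, *Il6* was at 1.17, 1.27 and 0.644 CPM in control lungs, 199.8, 33.4 and 85.7 CPM after LPS, and 2.59 and 0.659 CPM after the dual treatment. Like *Il17a*, *Il6* was highest in LPS mouse 1, and dual-treated mouse 5 lay within the control range. *Il1b* rose by a log2FC of 3.28 with LPS (edgeR adjusted p = 1.98e-06), and it remained higher after the dual treatment than in control (2.12, edgeR adjusted p = 0.000351). *Tgfb3* fell by 2.13 with LPS (edgeR adjusted p = 7.83e-07), *Tgfb1* was at -0.57 and not called, and *Il21* had no count in any mouse. From LPS to the dual treatment *Il6* and *Il1b* were called lower and *Tgfb1* and *Tgfb3* higher. Those calls changed in number without LPS mice 6 and 7, where 0 were higher, and without dual-treated mouse 2, where 1 was lower. Scaled by library size alone, 1 was lower there and 0 were lower in the dual treatment against control, where *Tgfb3* had been called (-1.02, edgeR adjusted p = 0.00068) and was not without control mouse 2. The list's median was 1.36 with LPS.

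The 7 lineage factors had a median log2FC of 0.53 with LPS, with 1 called higher and 2 lower. *Batf*, needed for type 17 helper cells, was at 8.91, 6.48 and 7.50 CPM in control lungs, 22.8, 26.7 and 19.98 CPM after LPS, and 14.9 and 13.2 CPM after the dual treatment. *Rora* (0.52) was not called with LPS, *Batf* was called higher (1.6, edgeR adjusted p = 2.66e-05), and *Ahr* (-1.20) and *Maf* (-1.19) were called lower. From LPS to the dual treatment, *Maf* was called higher (1.85, edgeR adjusted p = 0.000175) and *Rora* lower (-1.08, edgeR adjusted p = 6.08e-05). The number called lower there was 2 without dual-treated mouse 2, and 0 without LPS mouse 7 or under scaling by library size alone.

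Of 19 genes known as IL-17 targets, 18 were called higher with LPS, 12 lower from LPS to the dual treatment and 13 higher with the dual treatment than in control. Their median log2FC was 4.38, -2.19 and 2.86 in these comparisons. *Lcn2*, the siderophore-binding lipocalin, was at 149, 106 and 154 CPM in control lungs, 14050, 14500 and 10160 CPM after LPS, and 4471 and 1199 CPM after the dual treatment. *Saa3* was at 7.34, 5.26 and 19.6 CPM, then 6561, 9515 and 4355 CPM, then 1762 and 1245 CPM. For both genes the 3 groups did not overlap, and the dual-treated mice stayed far above control although *Il17a* and *Il17f* were at 2 counts or fewer. *S100a9* was at 98.2, 55.5 and 57.3 CPM in control lungs, 1362, 1856 and 1183 CPM after LPS and 832 and 1171 CPM after the dual treatment, and the difference between the treatments was not called (log2FC -0.55, edgeR adjusted p = 0.126). The log2FC of the mucin gene *Muc5b* was 4.09 with LPS (edgeR adjusted p = 8.19e-05) and -2.90 from LPS to the dual treatment (edgeR adjusted p = 0.00185), the latter -4.38 without dual-treated mouse 2 and -2.22 without dual-treated mouse 5. These mice were at 314 and 70.4 CPM, mouse 5 below the control mice (85.1, 86.7 and 81.9 CPM), and against control *Muc5b* was called only without mouse 5 (1.86). *Csf3*, the neutrophil growth factor, stood at 4400 times control with LPS (95% counting interval 1220 to 36300) and at 120 times control with the dual treatment (32.6 to 997). The latter was 13.7 (2.91 to 128) without dual-treated mouse 2, at 7.21 CPM, and 224 (61.1 to 1870) without dual-treated mouse 5, at 0.439 CPM. Its call (edgeR adjusted p = 0.015) was lost without dual-treated mouse 2 or any control mouse. Without control mouse 2 the ratios were 2910 (806 to 24100) and 79.4 (21.7 to 661). Under scaling by library size alone, 1 target was called higher from LPS to the dual treatment. Many of these genes also respond to LPS and to other cytokines, and the part of IL-17 in their levels was not tested.

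Of 12 targets of IL-12 and interferon gamma, 10 were called higher with LPS (median 3.56), 7 lower from LPS to the dual treatment (median -2) and 5 higher with the dual treatment than in control (median 0.72). *Ifng*, the interferon gamma gene, was at 0.0979, 0.0469 and 0.138 CPM in control lungs, 5.52, 2.37 and 0.447 CPM after LPS, and 0 and 0.219 CPM after the dual treatment. The LPS mice lay above the other 5 and spread widely, with mouse 1 the highest. LPS stood at 28.8 times control for *Ifng* (95% counting interval 12.9 to 79.9, edgeR adjusted p = 0.00283), a gene named after its values were seen. Without LPS mouse 1 the ratio was 14.8 (6.33 to 42.3) and without LPS mice 6 and 7 it was 58.6 (25.9 to 164), and *Ifng* failed the filter without LPS mouse 1 or LPS mouse 6. *Cxcl9*, a chemokine induced by interferon gamma, was at 0.685, 0.657 and 1.29 CPM, then 962, 764 and 615 CPM, then 27.2 and 10.36 CPM. *Irf1* rose by 2.68 with LPS (edgeR adjusted p = 2.04e-06) and fell by 2.94 from LPS to the dual treatment (edgeR adjusted p = 7.95e-06). In contrast to the 7 genes called lower, *Gzmb* and *Prf1*, named after their values were seen, did not return toward control. Group means for control, LPS and the dual treatment were 1.21, 23.1 and 22.4 CPM for *Gzmb*. They were 1.88, 6.13 and 9.76 CPM for *Prf1*. For both genes the dual-treated and LPS mice overlapped. *Cxcl10* rose by 8.07 with LPS (edgeR adjusted p = 3.32e-06), and *Il18r1* was at 0.42 and not called. Under scaling by library size alone, 1 gene of the list was called higher from LPS to the dual treatment.

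Of 7 targets of IL-22, 5 were tested, and 5 were called higher with LPS (median 3.13) and lower from LPS to the dual treatment (median -2.30), the latter 4 under scaling by library size alone. *Reg3g*, an antibacterial lectin, was at 46.2, 58.1 and 50.6 CPM in control lungs, 532, 913 and 903 CPM after LPS, and 230.0 and 49.1 CPM after the dual treatment. LPS mouse 1, which had the most *Il22*, had the least *Reg3g* of the LPS mice, and dual-treated mouse 5 lay within the control range. *Saa1* was highest in LPS mouse 6, at 275 CPM. In contrast, *Socs3* (980, 729 and 767 CPM in the LPS mice) and *Bcl3* (166, 127 and 136.5 CPM) were highest in LPS mouse 1. So was *Fut2* (16.3, 8.03 and 14.3 CPM), named after its values were seen. The part of IL-22 in these levels was not tested. *Saa1* remained higher in the dual-treated mice than in control (log2FC 6.15, edgeR adjusted p = 8.11e-05). The log2FC with LPS was 9.45 for *Saa1*, 3.13 for *Socs3* and 1.64 for *Bcl3*. *Reg3b* and *Retnlb*, named after their values were seen, had at most 4 counts in any library.

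Markers of the cells that make or answer these cytokines were set beside the axis, and their part in its changes was not tested. The summed CPM of 8 T cell markers was 28.1, 20.2 and 18.2 in the control mice, 30.2, 22.4 and 16.4 in the LPS mice, and 11.5 and 16.0 in the dual-treated mice. None of the 8 was at 0 in any mouse, *Lck* was the most abundant (5.66 to 8.81 CPM in control lungs), and the LPS and control sums overlapped while *Il17a* did not. With LPS 0 T cell markers were called higher and 2 lower, of which *Cd4* had a log2FC of -1.52 (-2.33 without LPS mouse 1), and 0 were lower without control mouse 1, LPS mouse 6 or LPS mouse 7, and 1 without control mouse 4. Without control mouse 1 or LPS mouse 7, 1 T cell marker was called higher with LPS. From LPS to the dual treatment 3 were called lower, among them *Trac* (-1.78, edgeR adjusted p = 0.0029), *Cd28* (-1.69) and *Cd3d* (-1.29). The call of *Cd28* was lost without dual-treated mouse 5, and that of *Cd3d* without LPS mouse 1, LPS mouse 6 or either dual-treated mouse. The summed CPM of 6 markers of gamma delta T cells and type 17 lymphocytes was 285.2, 257.1 and 277.8 in the control mice, 250.9, 226.8 and 244.7 in the LPS mice, and 203.3 and 154.5 in the dual-treated mice. *Zbtb16* led in the LPS mice, at 200.2, 189 and 199.9 CPM, with *Sox13* at 46.5, 33.7 and 40.1 CPM. *Sox13* was above *Zbtb16* in control mice 2 and 4 (146.3 and 169 against 100.6 and 96.97 CPM) and in dual-treated mouse 5 (107.3 against 41.6 CPM), and with LPS it was called lower (-1.87). *Il7r* was called lower as well (-1.16), and *Trdc*, which defines gamma delta T cells and was named after its values were seen, was at 1.12, 0.563 and 0.69 CPM in control lungs, 1.01, 0.462 and 0.502 CPM after LPS and 0.272 and 0.483 CPM after the dual treatment. With LPS 0 of the 6 were called higher and 4 lower, *Blk* with the largest fall (-2.08). After the dual treatment, relative to LPS, 2 were called higher (1 without dual-treated mouse 2) and 1 lower (0 without dual-treated mouse 5). Markers *Zbtb16* and *Sox13* are also expressed outside lymphocytes in the lung.

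Of 9 neutrophil markers, 8 were called higher with LPS, 4 with the dual treatment against control, and 4 higher and 5 lower from LPS to the dual treatment. Their summed CPM was 178, 177 and 98.6 in the control mice, 577, 732 and 649.7 in the LPS mice, and 506 and 557 in the dual-treated mice, with none at 0. *Ltf* was the most abundant in the control and LPS mice, and *Retnlg* in the dual-treated mice (220.6 and 261 CPM, against 126.4 and 46.8 CPM for *Ltf*). *Ly6g* had the largest rise with LPS (5.16) and was lower from LPS to the dual treatment (-2.75). The rise was 5.94 without control mouse 1 and 4.50 without LPS mice 6 and 7. The fall was -2.09 without dual-treated mouse 2 and -4.17 without dual-treated mouse 5, and was not called without LPS mice 6 and 7 (edgeR adjusted p = 0.0665). *Retnlg* (1.49), *Mmp8* (1.08) and *Csf3r* (1.05) were called higher there. The 4 markers called higher from LPS to the dual treatment became 2 without LPS mouse 1 or LPS mouse 7 and 1 without dual-treated mouse 5. Of 6 natural killer cell markers, 2 were called higher and 1 lower with LPS, 1 higher with the dual treatment against control, and 3 higher and 1 lower from LPS to the dual treatment. Under scaling by library size alone the last were 5 and 0, and without LPS mouse 1 or dual-treated mouse 5 there were 5 and 1 higher. The marker called lower with LPS, *Ncr1*, was not called without control mouse 4 or any single LPS mouse. *Gzma*, the most abundant of them, was at 5.33, 4.69 and 6.53 CPM in control lungs, 30.9, 25.5 and 11.2 CPM after LPS and 26.2 and 52.1 CPM after the dual treatment. From LPS to the dual treatment *Klrk1* was called lower (-1.32) and *Klrb1c* higher (1.37), the latter not without dual-treated mouse 5. Of 9 dendritic cell markers, 3 were called higher and 6 lower with LPS, 1 and 4 with the dual treatment against control, and 2 and 4 from LPS to the dual treatment. Against control, the 4 became 2 without dual-treated mouse 2, and the 1 was 0 without control mouse 2, control mouse 4, LPS mouse 6 or dual-treated mouse 2. *Clec9a*, with the largest fall in this list, was at 64.6, 56.5 and 61.4 CPM in control lungs, 0.534, 0.520 and 0.781 CPM after LPS, and 25.5 and 29.99 CPM after the dual treatment. *Ccr7* (3.99) and *Fscn1* (2.52) rose with LPS and *Zbtb46* fell (-1.76), and from LPS to the dual treatment each was called in the other direction, *Fscn1* not without dual-treated mouse 5. Other markers of the list, named after their values were seen, did not return toward control. Group means for control, LPS and the dual treatment were 8.13, 0.925 and 0.0439 CPM for *Cd209a*. They were 1.63, 0.467 and 0.0893 CPM for *Xcr1*, and 3.3, 0.69 and 0.87 CPM for *Itgae*. Of 9 macrophage and monocyte markers, 2 were called higher and 4 lower with LPS, 5 and 0 with the dual treatment against control, and 6 and 0 from LPS to the dual treatment. *Ly6c2* had the largest rise with LPS (3.37) and *Ccr2* the largest fall (-3.19), at 21.7, 16.7 and 17.7 CPM in control lungs, 2.31, 2.08 and 1.73 CPM after LPS, and 25.1 and 30.5 CPM after the dual treatment. *Mertk* (-1.72) and *Csf1r* (-1.01) were called lower with LPS, the latter not without control mouse 4 or LPS mouse 7, and *Chil3* (0.16) and *Marco* (0.70) were not called. Of 10 lung markers, 0 were called higher and 1 lower with LPS, 0 and 1 with the dual treatment against control, and 1 and 2 from LPS to the dual treatment. With LPS 3 were lower without control mouse 2, without LPS mouse 1 or under scaling by library size alone. The marker called lower with LPS, *Rtkn2*, was at 310, 317 and 289 CPM in control lungs, 6.58, 4.50 and 4.97 CPM after LPS, and 129 and 163 CPM after the dual treatment, where its call against control was lost without mouse 2 (-0.93). *Sftpc*, *Sftpb*, *Sftpa1* and *Scgb1a1* were at 2443 CPM or more in each of the 8 mice.

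LPS mice 6 and 7 stood apart from LPS mouse 1 in transcripts of other tissues. The summed CPM of 12 squamous epithelium markers was 1.96, 837 and 2225 in LPS mice 1, 6 and 7, and from 11.45 to 26.9 in the other 5 mice. The sum of 8 skeletal muscle markers was 16.6, 378 and 1024 in LPS mice 1, 6 and 7. *Il17a*, *Il17f*, *Il22* and *Il6* were highest in LPS mouse 1 and, like these sums, higher in LPS mouse 7 than in LPS mouse 6. *Il23a* and *Il17c* spread less among the LPS mice but, like these sums, were highest in LPS mouse 7, at 2.62 and 1.34 CPM. They were lowest in LPS mouse 6, at 1.56 and 0.809 CPM. *Il17ra*, which also spread less, was lowest in LPS mouse 7. With LPS 10 squamous and 6 muscle markers were called higher, among them *Krt13*, *Krt4*, *Krtdap* and *Sprr3*, and *Acta1*, *Ckm*, *Tnnt3* and *Mylpf*, and without LPS mice 6 and 7 it was 0 of each. Without these mice 8 of 9 tested members were called higher with LPS, where 3073 of all 19272 tested genes were. From LPS to the dual treatment 7 were called lower, where 2378 of all tested genes were, *Il12b* and *Il17c* (log2FC -1.68) not being called. Most members passed the filter through the LPS mice, so these counts too support nothing by themselves, and the part of the other tissues in the axis was not tested. With a single LPS mouse or a single dual-treated mouse left in a refit, that mouse is taken to vary as the other groups do.

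Each promoter window shown runs from 250 bases before to 50 bases after the annotated start. The sequences are from RefSeq on GRCm38.p6, an older build than that of the counts, and held 7 of the 9 members in 8 entries. *Il23a* and *Il17ra* are named only. The windows were searched on both strands for TTCNNNGAA (STAT factors), GGNNTTTCC (NF-kappa B) and TGANTCA (AP-1), where N is any base. The last pattern is looser than the AP-1 consensus, which has C or G at N. Of 32851 promoters of this length, 8.3% held TTCNNNGAA, 5.82% GGNNTTTCC and 7.81% TGANTCA. *Il17a* held TGANTCA from position -244, counted from the start site, with A at N and so outside that consensus. *Il23r* held GGNNTTTCC from -141. *Il12a* held GGNNTTTCC from position 18 in 1 of its 2 entries, and *Il17f*, *Il22*, *Il17c* and *Il12b* held none of the 3 motifs in these windows. A match is a run of letters and not a bound site, and binding was not measured. The windows of the 3 type 17 cytokines that were most alike over the mice, and of *Il23r*, follow 5′ to 3′ on the gene's strand with matched bases in capitals.
Il17a, chr1:20730655-20730954, plus strand: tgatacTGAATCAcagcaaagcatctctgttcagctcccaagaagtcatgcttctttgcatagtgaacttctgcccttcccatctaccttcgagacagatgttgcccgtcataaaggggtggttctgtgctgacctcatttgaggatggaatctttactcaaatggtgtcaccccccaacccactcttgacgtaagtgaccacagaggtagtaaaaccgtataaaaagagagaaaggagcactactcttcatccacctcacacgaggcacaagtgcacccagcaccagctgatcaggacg
Il17f, chr1:20784221-20784520, minus strand: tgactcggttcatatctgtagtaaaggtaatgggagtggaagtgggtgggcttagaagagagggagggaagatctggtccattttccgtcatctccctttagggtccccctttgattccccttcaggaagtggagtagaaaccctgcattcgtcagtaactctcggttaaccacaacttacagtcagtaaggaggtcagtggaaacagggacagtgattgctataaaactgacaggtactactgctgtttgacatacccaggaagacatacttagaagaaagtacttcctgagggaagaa
Il22, chr10:118204714-118205013, plus strand: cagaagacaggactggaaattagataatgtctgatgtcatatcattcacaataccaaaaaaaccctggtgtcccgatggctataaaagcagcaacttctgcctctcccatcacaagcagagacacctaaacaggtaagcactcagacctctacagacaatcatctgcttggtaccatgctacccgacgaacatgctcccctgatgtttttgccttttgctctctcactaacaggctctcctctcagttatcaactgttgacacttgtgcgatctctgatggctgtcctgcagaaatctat
Il23r, chr6:67491806-67492105, minus strand: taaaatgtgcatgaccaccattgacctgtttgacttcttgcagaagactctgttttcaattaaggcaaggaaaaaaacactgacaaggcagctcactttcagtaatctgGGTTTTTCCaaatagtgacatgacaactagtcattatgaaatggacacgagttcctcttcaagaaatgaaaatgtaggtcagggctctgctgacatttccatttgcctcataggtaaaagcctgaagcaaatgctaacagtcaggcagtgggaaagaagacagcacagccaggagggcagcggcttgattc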

How the data were processed

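Lung RNA of 8 mice was measured by RNA-seq. Reads were trimmed with Trim Galore and aligned with HISAT2 2.2.1 to GRCm39, and the authors deposited the raw counts per gene that featureCounts 2.0.1 gave for each mouse. Strand setting, annotation release and treatment of multimapping reads are not stated. Symbols, coordinates and exon lengths came from GENCODE M39, which matched 54749 of 55416 identifiers. In R 4.3.3, edgeR 4.0.16 gave TMM factors, the filter on low counts (filterByExpr with the groups) and quasi-likelihood tests from 1 fit of all 8 libraries with 5 residual degrees of freedom. Standard errors were derived from the log2FC and its F statistic. The floor was 3 counts per library: a group without counts gave a bound, and a group with 1 to 3 counts at most in each library gave a pooled ratio with an exact binomial counting interval at 95%, in place of the bound first planned. Alternatives were DESeq2 1.42.0, further scalings, low-count filters and call rules, fits of only the groups compared, TPM, Spearman's rho, and leaving out mice. The members and the lists of pathway genes and cell markers were chosen with earlier results of these data known. Named were the members, the genes most like them, all ligands, receptor chains, brakes and inducing cytokines, and of the other lists those with the highest mean CPM and the largest called rise and fall. The marker Tcrg-C1 matched no symbol. In 2 of the planned lists 1 gene was not used here. The procedure was tested on simulated data. Protein measurements were not analysed here.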

Additional observations from a re-analysis of the deposited data

How the results depend on the processing

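In 47 of 51 refits the number of members called stayed within 1.5 times that reported. Most tested members passed the filter through the LPS mice alone. In the comparisons with the LPS group, these steady counts therefore support nothing by themselves. A filter of at least 10 counts in every library left 2 members to test, *Il12a* and *Il17ra*, with 2 called for LPS against control and 2 for the dual treatment against LPS, where 4933 and 4227 of all 14425 tested genes were called. For the dual treatment against control, 3 were called by unadjusted p (*Il23r*, *Il17c* and *Il17ra*) and 0 by a test against a fold of 2, the former beside 1944 of all 18560 tested genes. The test against a fold of 2 called 4780, 368 and 3378 of all tested genes for LPS against control, the dual treatment against control and the dual treatment against LPS. It also lost *Il23r* with LPS (edgeR adjusted p = 0.0615) and *Il12a* (0.122) and *Il17c* (0.129) from LPS to the dual treatment, and *Il17c* was lost without a filter (0.0541). Genes called for the dual treatment against control ranged from 752 to 1831 when mice were left out singly. The log2 fold change of Il12a, LPS+YW3-56 versus control, ranged from -0.052 to 0.53 and the log2 fold change of Il23a, LPS+YW3-56 versus control, from -1.97 to 0.76, reversing without dual-treated mouse 5 and control mouse 2, and neither was called. Without control mouse 2 both groups of *Il23a* were at the floor, so that value is not a fold to be read. The cause was not tested. Of the 60, 24 and 58 genes named from the other lists and called for LPS against control, the dual treatment against control and the dual treatment against LPS, 11, 8 and 21 lost the call in at least 1 refit without mice, and 8, 15 and 12 others gained it. DESeq2 gave no p-value for *Il17a*, so that it called 7 members in either comparison with the LPS group, beside 7540 and 6253 of 32006 genes for LPS against control and the dual treatment against LPS. Scaling by library size alone moved the share of called genes that were higher from 45.6% to 32.5% for LPS against control and from 58.5% to 74.7% for the dual treatment against LPS. Ranks by level per length were the same by TPM for all 27 values. No paired analysis was made because no pairing of mice between groups is described. With 2 to 3 mice a group and at most 3 counts in control or dual-treated libraries, folds of *Il17a*, *Il17f* and *Il22* are limited by depth.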
